A study of Mus musculus with 6 samples.

Results

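The genes expressed in the wild type mouse lens at 3 months of age were ranked by their array signal, using the 3 wild type arrays (replicates 1 to 3) among the 6 arrays of the series. Each array was a single-colour Agilent array that received Cy3-labelled material made from total lens RNA, and each probe is a short DNA strand that captures the labelled RNA of a gene. The other 3 arrays hold lens RNA of the same age from mice carrying the W151C knock-in of βB2-crystallin, a tryptophan-to-cysteine change at codon 151 that was made with CRISPR/Cas9; they enter only the comparison with the knock-in near the end. The replicates are called biological, but the labels do not say whether an array holds the lenses of a single animal or of several, so p-values measure the spread between these arrays. A gene was ranked if a probe with its RefSeq accession was well above background on all 3 wild type arrays, and its level is the log2 processed signal minus the array's 75th percentile, averaged over the 3 arrays, for its brightest probe. Of 20659 gene symbols with a probe, 12518 (60.6%) could be ranked. Signals of different probes depend on the probe as well as on the amount of RNA, so the ranking orders signals and no test was made between genes.

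The lens is a transparent tissue made of an epithelial layer over fibre cells, which fill with crystallins and lose their nuclei and other organelles as they mature. The α-crystallins are small heat shock proteins that hold other proteins in solution, while the β- and γ-crystallins form a separate structural family whose dense packing gives the lens its refractive power. Fibre cells also build a beaded filament from Bfsp1 and Bfsp2, a water channel from Mip and gap junctions from connexins, and the whole lens lies in a capsule of basement membrane. Transcription factors of the Maf, Sox, Pax and Prox families act on crystallin promoters, many of which hold a TATA box a short way before the start of transcription.

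Crystallin genes took the first 7 places of the ranking. Their promoters (mouse build GRCm38.p6) are shown except that of Cryab, which had no match among the promoters used. That of Crybb1, a dimmer crystallin gene (rank 92, level 7.49), is shown with them. The short motifs differ from gene to gene. Each line gives the 100 bases before the start of transcription, 5′ to 3′. Capitals mark the TATA box TATAAA, its variant TATATA and TGCTGA, a half-site of the Maf recognition element, on either strand. The windows are chr5:113070118-113070217, minus strand, for Crybb2; chr11:77725294-77725393, minus strand, for Cryba1; chr16:22811411-22811510, minus strand, for Crygs. Those of the γ-crystallin cluster are chr1:65073533-65073632, minus strand, for Crygc and chr1:65063441-65063540, minus strand, for Crygd. The windows of Cryaa and Crybb1 are chr17:31677831-31677930, plus strand, and chr5:112255720-112255819, plus strand.

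Crybb2: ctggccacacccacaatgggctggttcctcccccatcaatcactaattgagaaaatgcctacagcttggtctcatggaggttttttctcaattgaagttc
Cryba1: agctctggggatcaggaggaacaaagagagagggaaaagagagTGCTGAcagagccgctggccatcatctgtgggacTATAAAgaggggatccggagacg
Crygs: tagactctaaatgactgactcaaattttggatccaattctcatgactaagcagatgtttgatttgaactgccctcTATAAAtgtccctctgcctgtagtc
Crygc: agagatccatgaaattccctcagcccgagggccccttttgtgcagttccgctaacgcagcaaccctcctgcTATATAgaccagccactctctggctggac
Crygd: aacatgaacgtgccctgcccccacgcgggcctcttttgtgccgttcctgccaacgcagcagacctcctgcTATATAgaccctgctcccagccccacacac
Cryaa: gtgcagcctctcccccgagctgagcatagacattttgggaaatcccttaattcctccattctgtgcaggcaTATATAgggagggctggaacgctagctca
Crybb1: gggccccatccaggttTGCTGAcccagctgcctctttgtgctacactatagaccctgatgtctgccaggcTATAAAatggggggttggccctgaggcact

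Of the 16 crystallin genes, 15 matched the promoter table, and 11 of these 15 (73.3%) held the TATA box TATAAA or its variant TATATA on the gene's own strand from 45 to 11 bases before the start. TATATA was added to the search after the windows had been seen, so this share describes the genes it was picked from. TATAAA alone was found there in 3 of 15 crystallin promoters (20%) and in 2.22% of all promoters. Either motif was found in 3.1% of all 32851 promoters of the table, in 2.45% of the promoters of ranked genes, and in 3 of 70 (4.29%) promoters of ribosomal protein genes. TATAAA, the usual TATA box, stood 23 bases before the start in Cryba1, 25 in Crygs and 30 in Crybb1. All 8 crystallin promoters with TATATA were those of Cryaa and of the γ-crystallins Cryga, Crygb, Crygc, Crygd, Cryge, Crygf and Crygn. Those of Crygd, Cryge and Crygf have the same bases on both sides of TATATA, so these matches are not independent of each other. TATATA is its own reverse complement and can share bases with TATAAA. The motif TGCTGA is a half-site of the recognition element bound by Maf proteins. It was found on either strand in the 250 bases before the start in 10 of 15 crystallin promoters (66.7%). Over all promoters the share was 16.1%, and over those of ribosomal protein genes 7.14%. Crybb2, the gene with the highest signal, held none of the 3 motifs in its 250 bases. These matches describe letters in a window and are not measurements of binding.

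Signal was ample on all 3 arrays, with 55.7% to 58.4% of the 43020 spots well above background, no spot saturated, and 13052 to 13444 genes above background per array. The arrays differed in brightness: the 75th percentile of the signal was 142 on array 1, 120 on array 2 and 698 on array 3, in scanner units, while the highest signal was 141459, 143058 and 190397. Arrays 1 and 2 shared a slide and a scan day, and array 3 came from another slide scanned on another day, so that slide, day and animal cannot be told apart for array 3.

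The 5 lens markers (Crybb2, Cryab, Cryba1, Crygs and Cryaa) were all among the 7 highest genes. Crybb2, which encodes βB2-crystallin, had a level of 9.94 on array 1, 10.19 on array 2 and 7.96 on array 3 (mean 9.37 ± 1.22, SD, n = 3) and ranked 1st, 1st and 3rd on them. Cryaa, which encodes αA-crystallin, had 9.61, 10.01 and 7.07 (mean 8.90 ± 1.59, SD, n = 3). Its rank was 3 on array 1, 2 on array 2 and 93 on array 3, the widest spread of the 5. Cryab, the gene of αB-crystallin, reached 9.52, 9.84 and 7.80 (mean 9.06), Cryba1 9.61, 9.95 and 7.56 (mean 9.04 ± 1.29) and Crygs 9.47, 9.78 and 7.82 (mean 9.03 ± 1.05). In each of them array 2 was slightly above array 1, and array 3 was far below both, with differences from their mean between -1.80 and -2.74. The means of Cryab, Cryba1, Crygs, Crygc (9.01 ± 1.30) and Crygd (8.97 ± 1.28) lie close together. Their SDs hold the shift of array 3 that they share, so these SDs do not measure the spread of the differences between the genes. The order of these genes changed between the arrays: Crygs ranked 7th, 7th and 9th on arrays 1, 2 and 3, and Cryba1 2nd, 3rd and 30th. With Cryaa, whose rank also changed, the order from rank 2 to rank 7 is therefore not resolved. Leaving out each array in turn kept Crybb2 at rank 1 and moved Cryaa between ranks 2 and 15, with rank 2 when array 3 was left out.

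**Figure D1:**
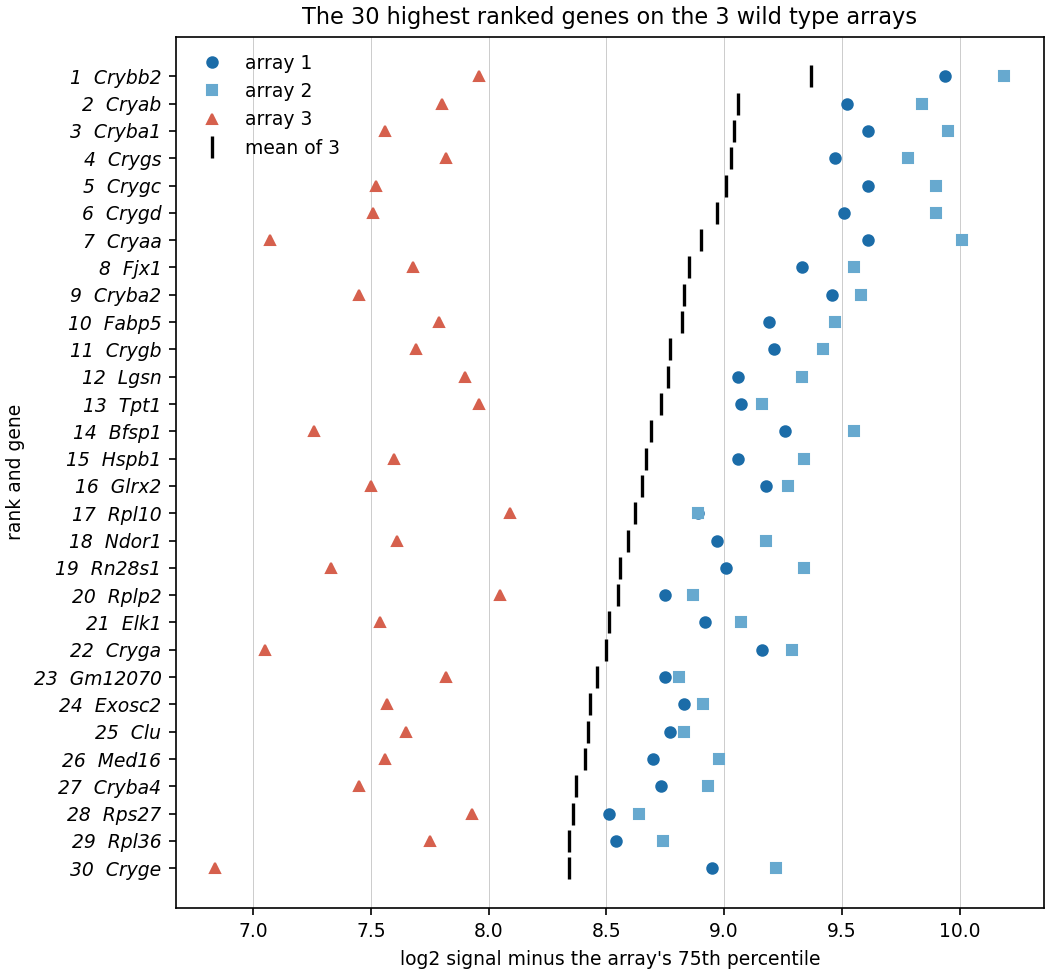
Level (log2 processed signal minus the array's 75th percentile, horizontal axis) of the 30 highest ranked genes on each of the 3 wild type arrays, with the mean as a black bar. Array 3 (triangles) lies below arrays 1 and 2 for all 30 genes, and crystallins fill ranks 1 to 7. No level on array 3 exceeds 8.09, which is under the mean of each of the 30. A place below the mean of arrays 1 and 2 therefore follows from the ranking.

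All 16 crystallin genes were ranked, 9 of them among the highest 20 and 14 among the highest 100, with a median rank of 10 of 12518. Among the other β-crystallins, Cryba2 was 9th (level 8.83 ± 1.20), Cryba4 27th (8.37 ± 0.80), Crybb3 33rd (8.30 ± 0.75) and Crybb1 92nd (7.49 ± 0.31). Of the γ-crystallins, whose expression belongs mainly to fibre cells, Crygb ranked 11th (8.77 ± 0.94), Cryga 22nd (8.50 ± 1.26), Cryge 30th (8.34 ± 1.31) and Crygf 103rd. Crygf had levels of 8.48, 8.71 and 5.08 (mean 7.42 ± 2.03), the largest SD of the family, with arrays 1 and 2 close together and array 3 far below them. Crygn stood apart at rank 2124 with 2.74, 2.79 and 2.01. Closely similar γ-crystallin transcripts may bind each other's probes, which the files do not resolve.

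The crystallins together held 9.4% of the summed signal of ranked genes on array 1, 10.6% on array 2 and 3.51% on array 3 (mean 7.86 ± 3.81%, SD, n = 3). Before scaling, the crystallin signals on array 3 lay above those of both other arrays in 14 of 16 genes, Cryaa and Crygf being the exceptions. The same held for 12413 of all 12518 ranked genes and for 99 of the highest 100, so it was not particular to the crystallins. Crybb2, for example, read 139566, 140598 and 174226 scanner units. After scaling by the 75th percentile, which was several times higher on array 3, all 16 were lower there than on either other array. So were 100 of the highest 100 genes and 5152 of all 12518 ranked genes. The median difference of the crystallins from the mean of arrays 1 and 2 was -2.09 (log2). With quantile normalization in place of that scaling, the median difference was -0.81. How far compressed signal at the bright end, the slide or the lenses themselves contribute was not tested.

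**Figure D2:**
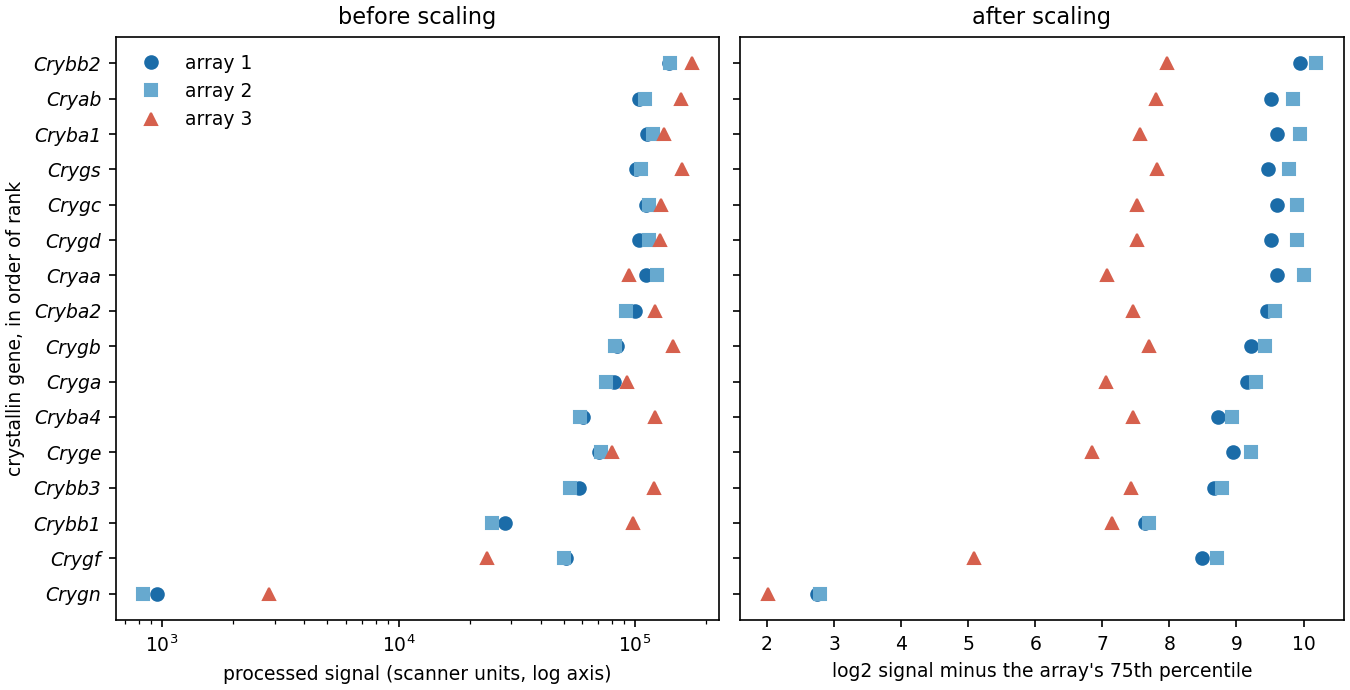
Signals of the 16 crystallin genes on the 3 wild type arrays, in scanner units on a log axis (left) and as log2 signal minus the array's 75th percentile (right). Array 3 is above the other arrays for 14 of 16 genes on the left and below them for all 16 on the right. Of the highest 100 genes, 99 were above before scaling and 100 below after it.

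Some structural and stress protein genes of the fibre cell had signals close to those of the crystallins, although the medians of their lists lay behind those of ribosomal and respiratory chain genes. Bfsp1, a beaded filament protein, ranked 14th with levels of 9.26, 9.55 and 7.26, and its partner Bfsp2 ranked 31st with 8.69, 8.69 and 7.63. Lgsn, which encodes lengsin, a fibre protein related to glutamine synthetase, ranked 12th with 9.06, 9.33 and 7.90. All 3 genes had their lowest level on array 3. Mip, the water channel of fibre membranes, ranked 47th with 8.45, 8.60 and 7.24, and the intermediate filament gene Vim ranked 81st (7.62 ± 0.48). Of 20 fibre cytoskeleton genes, 18 were ranked and 5 stood in the highest 100; Nefl and Nefm, neurofilament genes, were above background on no array. Of 20 fibre membrane and junction genes, 19 were ranked with a median rank of 1561, and Mip was the only one in the highest 100. Nrcam and Cdh2, adhesion molecules of fibre membranes, ranked 278th (5.82 ± 0.16) and 489th (4.87 ± 0.04), with levels on array 3 within 0.3 of the mean of the other arrays. The membrane protein gene Lim2 (rank 1355) and the connexin gene Gja3 (rank 2695) were far lower; both were named after their values had been seen.

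Hspb1, a small heat shock protein like the α-crystallins, ranked 15th among all genes with 9.06, 9.34 and 7.60, and Hspa8, the constitutive Hsp70, ranked 35th (8.29 ± 0.76). Of 23 chaperone genes with a probe, 22 were ranked, with a median rank of 1108. Clu, which encodes the secreted chaperone clusterin and is listed here with the epithelium, ranked 25th at 8.77, 8.83 and 7.65. Fabp5, a fatty acid binding protein, ranked 10th (8.82 ± 0.90), and Fjx1, a secreted relative of the fly protein four-jointed, ranked 8th (8.85 ± 1.02). Both belonged to no list and had a single named probe.

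Genes of fibre maturation were spread over the whole range: 20 of 22 were ranked, between rank 93 and rank 11641. Lctl, a membrane protein related to lactase, led them with 7.69, 7.70 and 7.06. Tdrd7, a component of RNA granules, followed at rank 146 with 7.04, 7.04 and 6.74, and Bnip3l, which marks mitochondria for removal, at rank 187 with 6.51, 6.54 and 6.38. In contrast to the crystallins, Bnip3l varied by less than 0.2 between the arrays. Capn2, a calcium-dependent protease, ranked 380th (5.28 ± 0.20), whereas the fibre protease gene Capn3 was above background on array 1 only. The gene of the DNase that degrades fibre DNA was not analysed here.

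Lens transcription factors had moderate signals: 21 of 22 were ranked, with a median rank of 3159, and only Maf lay within the highest 500. Maf, a factor known to bind crystallin promoters, ranked 374th with 5.48, 5.30 and 5.20. Eya1 (rank 835, 4.03 ± 0.40), Six3 (rank 854, 4.00 ± 0.12) and Pitx3 (rank 916, 3.91 ± 0.21), all regulators of eye development, came next. Their 3 levels lay within 0.4 for Pitx3 and within 0.3 for Six3, while Eya1 was lowest on array 3, at 3.59 against 4.17 and 4.35. Sox11 was above background on no array. Pax6 (rank 5632), Prox1 (rank 6901) and Foxe3 (rank 10195), named after their values had been seen, had low signals on every array, with means of 0.40, -0.25 and -2.01.

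The epithelium and the capsule were represented by few bright genes. All 21 epithelial genes were ranked, with Clu and Dkk3, a secreted protein of the Dickkopf family, in the highest 100. Dkk3 ranked 96th with 7.55, 7.59 and 7.29, and Igfbp7, which binds insulin-like growth factors, ranked 163rd with 7.14, 7.22 and 5.98. Of this pair, Igfbp7 alone was over 1 lower on array 3 than the mean of the others. Of 18 capsule genes, 16 were ranked: Sparc, a collagen-binding protein, was 88th (7.53 ± 0.43), Nid1, which links laminin to collagen IV, 206th (6.31 ± 0.17), the collagen IV chain Col4a5 745th (4.20 ± 0.16) and the proteoglycan Hspg2 1087th (3.64 ± 0.17). Lama4 was above background on no array.

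Ribosomal protein genes were the most numerous group at the top. All 80 cytosolic ribosomal protein genes were ranked, 36 in the highest 100 and 77 in the highest 500, with a median rank of 110. Their share of the summed signal was nearly the same on each array, at 14.5%, 14.7% and 14.7% (mean 14.6 ± 0.12%, SD, n = 3), whereas the crystallin share on array 3 was far below that on the other arrays. After scaling, 58 of the 80 were lower on array 3 than the mean of arrays 1 and 2, with a median difference of -0.32. Over all ranked genes it was 5550 of 12518, with a median of 0.08. Rpl10, a protein of the large subunit, had 8.89, 8.89 and 8.09 and was the gene with the highest signal on array 3. Rplp2 (8.75, 8.87 and 8.05) was second there. Rps27 and Rpl36 ranked 28th and 29th. Of 25 translation factor genes, 24 were ranked with a median rank of 406; Tpt1, which encodes translationally controlled tumour protein, was 13th (9.07, 9.16 and 7.96) and Eef1a1 63rd (7.89 ± 0.49).

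Energy and redox genes followed at lower signal. All 74 respiratory chain genes were ranked, 26 of them in the highest 500 and none in the highest 100; the brightest was Cox7c, a subunit of cytochrome c oxidase, at rank 188 (6.46 ± 0.31). Glycolytic genes had a median rank of 777 (18 of 19 ranked), led by Gapdh at rank 45, with 8.34, 8.43 and 7.71, and Aldoc at rank 117, with 7.37, 7.37 and 7.10. Slc2a1, the glucose transporter of many barrier tissues, ranked 142nd (6.98 ± 0.41), and Ldha, lactate dehydrogenase A, 169th (6.69 ± 0.24). Of the polyol pathway, in which glucose is turned into sorbitol and fructose, Akr1b3 (aldose reductase) ranked 641st (4.44 ± 0.13) and Sord (sorbitol dehydrogenase) 793rd (4.12 ± 0.03). Among 30 antioxidant genes, 28 were ranked and none reached the highest 100; Sod1, superoxide dismutase, ranked 197th (6.40 ± 0.12) and Prdx6, a peroxiredoxin, 241st (6.08 ± 0.06). The ferritin chains Ftl1 and Fth1, which store iron, ranked 38th (8.26 ± 0.87) and 78th (7.68 ± 0.35), while the metallothionein gene Mt2 ranked 5176th (0.64 ± 0.54).

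Enzymes that serve as crystallins in other vertebrates, listed with some of their relatives, were not uniformly bright in the mouse lens. Of the 13 genes, 12 were ranked, with a median rank of 1242. Lctl, which is related to lactase and is in the list without being known as a crystallin, came first, followed by Ldha, Eno1 (rank 226, 6.16 ± 0.20) and Aldh3a1 (rank 242), and Crym, a crystallin of marsupials, was above background on no array. Ubiquitin and proteasome genes were all ranked (33 of 33), from Ubb at rank 41 (8.24 ± 0.60) to rank 5092. The sodium pump subunit gene Atp1b3 (rank 357, 5.40 ± 0.06) led the ion transport list, in which 14 of 20 genes were ranked. Fgfr3 (rank 425, 5.08 ± 0.20) and Fgfr1 (rank 1133, 3.58 ± 0.14), receptors of the fibroblast growth factors that drive fibre differentiation, were in the list of the FGF response, with 15 of 19 ranked. Of the cytoskeletal and reference genes, Ppia ranked 51st (8.01 ± 0.49) and Actb 58th (7.95 ± 0.33).

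**Figure D3:**
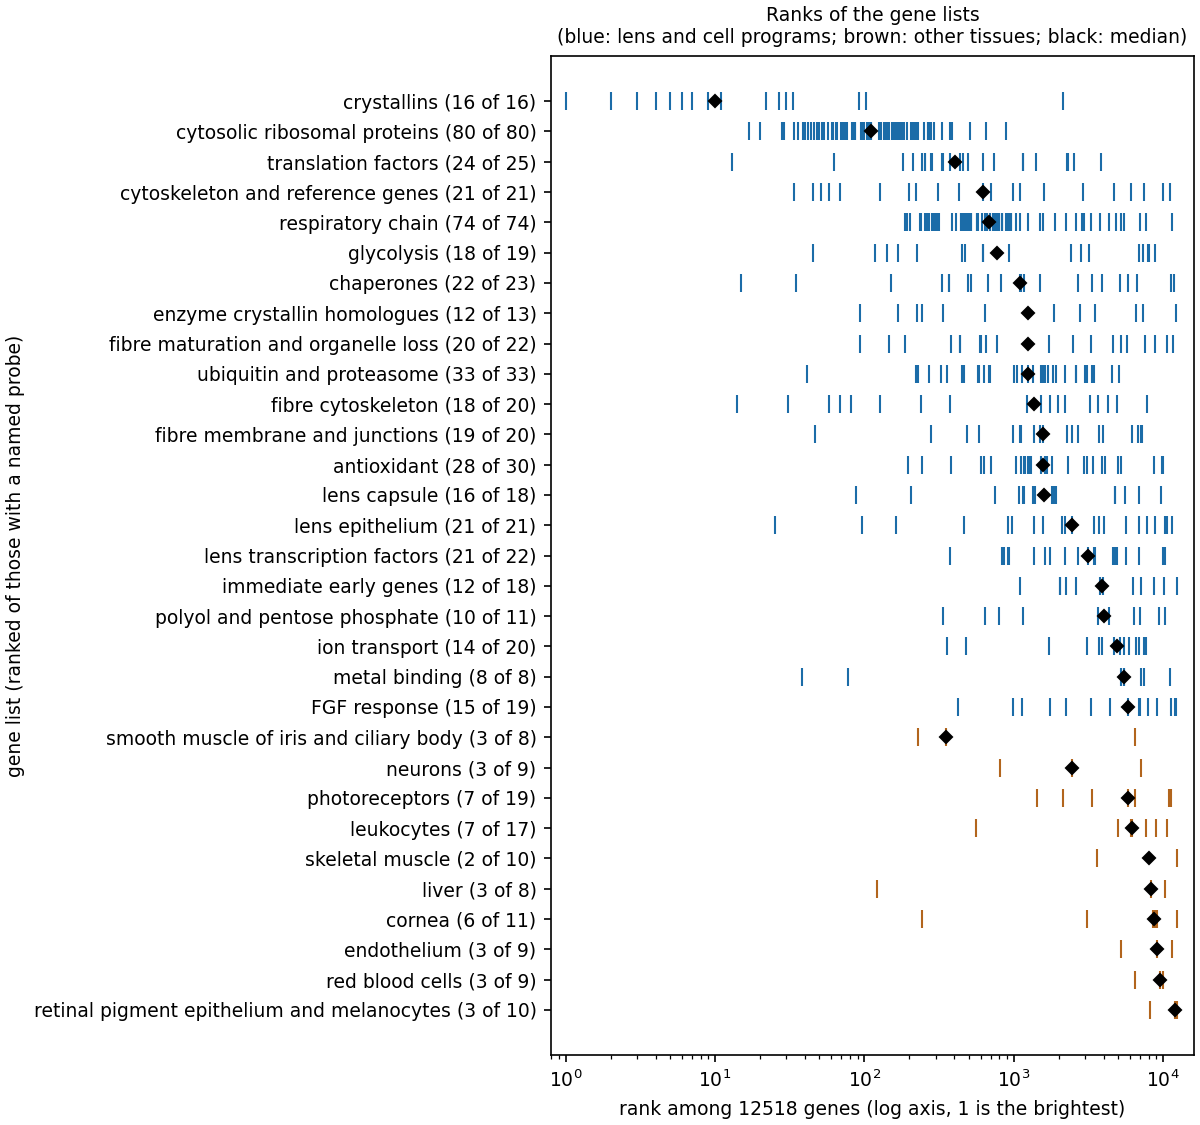
Rank of every ranked gene (ticks, log axis) in each of 31 gene lists, with the median as a black diamond and the number ranked of those with a named probe in brackets. The crystallins (median rank 10) and ribosomal proteins (median rank 110) lie far to the left, and most members of the lists of other tissues (brown) that were ranked lie beyond rank 1000.

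Of the highest 100 genes, 69 belonged to at least 1 of the 21 lists of lens and general cell functions and 31 to none, and 5 were not annotated as protein coding, among them the 28S ribosomal RNA Rn28s1 at rank 19 and the transcribed pseudogene Gm12070 at rank 23. Several of the 31 were genes of general regulation whose other probes were far dimmer. Elk1, a transcription factor of the ETS family, ranked 21st on a probe with 8.92, 9.07 and 7.54, but its other probe read -6.07, -5.99 and -6.62 and was above background on no array. Med16, a subunit of Mediator, ranked 26th at 8.41 while its other probe averaged -0.74, and Ndor1, a diflavin reductase, ranked 18th at 8.59 while its other probe averaged 0.25. In each case the rank rests on a single probe among those of the gene. Over the 53 genes of the highest 100 with more than 1 named probe, a gap of at least 4 log2 units (16-fold, a limit chosen after the values had been seen) between the brightest and the next probe occurred in 2 of 36 genes that belong to a list and in 12 of 17 that belong to none. The median gap was 0.49 in the first group and 8.73 in the second. Over all 2624 ranked genes with more than 1 probe above background on all 3 arrays, 12.3% had such a gap and the median was 1.59. Only such probes were counted there, whereas every named probe was counted for the 53 genes, dim ones included. The 2 sets of gaps are therefore not on the same measure. Crystallin probes differed as well: the next probe of Cryab averaged 5.89 against 9.06, and that of Cryaa 5.59 against 8.90. With the mean of a gene's probes in place of the brightest, Cryab ranked 67th, Cryaa 84th and Crybb2 3rd.

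**Figure D4:**
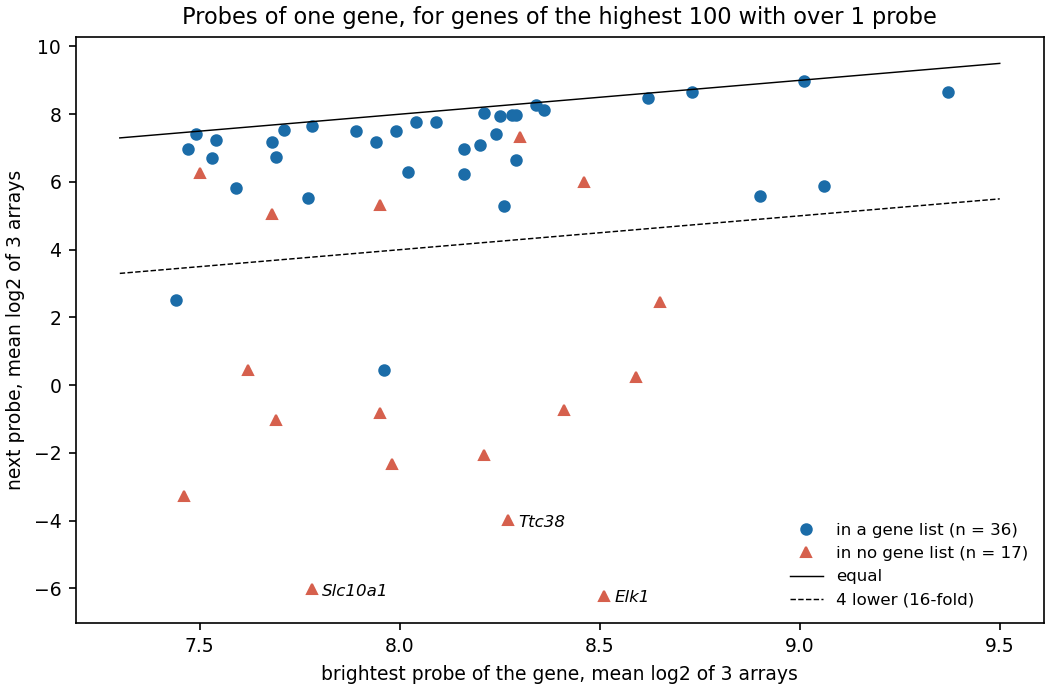
Mean level of the brightest probe (horizontal axis) and of the next probe (vertical axis) for the 53 genes of the highest 100 with more than 1 named probe, on the log2 scale relative to the 75th percentile. Circles are genes of a list and triangles genes of none; 12 of the 17 triangles and 2 of the 36 circles lie on or below the dashed line, 4 units under equality, with Elk1, Ttc38 and Slc10a1 lowest.

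Markers of other eye tissues and of blood were for the most part not above background on all 3 arrays. Of 19 photoreceptor genes, 7 were ranked and 7 were above background on no array, among them Crx, a transcription factor of photoreceptors; their summed level (linear signal relative to the 75th percentile) was 26.5, 28.1 and 14.2, against 9257, 11138 and 2544 for the crystallins. Rbp3, which carries retinoids between retinal cells, was the brightest at rank 1430 with 3.54, 3.63 and 2.39. Of 10 genes of retinal pigment epithelium and melanocytes, 3 were ranked, none above rank 8096, with a summed level of 0.657 to 1.59. Red cell genes summed to 1.2 to 2.49 (3 of 9 ranked, with Hbb-bs and Alas2 above background on no array) and endothelial genes to 1.43 to 3 (3 of 9 ranked, with Cdh5 and Tek above background on no array). Skeletal muscle genes summed to 3.1 to 3.5 (2 of 10 ranked, with Myh1, Myh2 and Myh4 above background on no array).

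Single genes of other lists had high signals while their companions did not. Apoa2, an apolipoprotein of liver, ranked 121st with 7.49, 7.81 and 6.28, but Alb, Apoa1, Ahsg and Ttr were above background on no array and its own second probe averaged -2.89. In smooth muscle of iris and ciliary body, Smtn ranked 227th (6.16) on the brighter of 2 probes, the other being at -6.18 and above background on no array, and Acta2 ranked 353rd with 5.19, 5.19 and 5.90, while Myh11, Cnn1, Des and Actg2 were above background on no array. Itgam led the leukocyte genes (7 of 17 ranked, summed level 14.5 to 45.1) at rank 561, with its next probe at -2.08 against 4.61, and Lyz2, Tyrobp and Cd52 were above background on no array. Snap25 led the neuronal genes (3 of 9 ranked, summed level 11.8 to 33.3) at rank 810 with 4.59, 4.70 and 2.95. Cornea is represented by Aldh3a1, a corneal aldehyde dehydrogenase that is also in the list of enzyme crystallins, at rank 242 with 5.94, 5.86 and 6.44; its 2 probes averaged 6.08 and 5.88. Trp63, a transcription factor of surface epithelia, ranked 3107th (1.82 ± 0.60), the other ranked genes of the list began with Kera at rank 8527, and Krt12, Lum and Upk1b were above background on no array. What part cells outside the lens have in these single signals was not tested.

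Wild type arrays 1 and 2 were close to each other and array 3 less so. Across the 12518 genes, which are not independent replicates and share the probe set, Pearson's r was 0.996 between arrays 1 and 2 (Spearman's rho 0.995), 0.960 between arrays 1 and 3 (0.959) and 0.952 between arrays 2 and 3 (0.950). The median absolute difference was 0.09 log2 units for the first pair, 0.37 for the second and 0.41 for the third, and 99.6%, 86.3% and 83% of genes were within 2-fold. The 3 knock-in arrays, which share a slide, gave r from 0.969 to 0.988 over the 10929 genes above background on all of them, a smaller set of genes. Over all ranked genes the median SD was 0.24, 10231 genes (81.7%) kept within a range of 1 log2 unit, and 373 had an SD of at least 1. The highest 20 genes of arrays 1 and 2 were the same 20, but 8 of them were also among the highest 20 of array 3; of the highest 100, 80 were shared by all 3 arrays, and of the highest 500, 438.

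Differences between array 3 and the others varied with the rank, upward over the brighter genes and downward again among the dimmest. Among ranks 1 to 20 array 3 was below the mean of arrays 1 and 2 by a median of -1.78, with 20 of 20 genes lower. The highest level on array 3 was 8.09 (Rpl10), under the mean of every gene in ranks 1 to 20. That direction was therefore fixed by the ranking. The median difference was -1.09 for ranks 21 to 50, -0.69 for ranks 51 to 100, -0.45 for ranks 101 to 200, 0.00 for ranks 501 to 1000 and 0.19 for ranks 2001 to 4000 and 4001 to 8000. In ranks 8001 to 12518 it was -0.22, with 2617 of 4518 genes lower on array 3. Between arrays 2 and 1 the same medians ran from 0.27 to -0.02, a far smaller slope in the opposite direction. Before scaling, array 3 exceeded the mean of arrays 1 and 2 by a median of 1.56-fold in ranks 1 to 20, 3.32-fold in ranks 51 to 100, 6.09-fold in ranks 2001 to 4000 and 4.61-fold in ranks 8001 to 12518, so its excess was least for the brightest probes. The highest 100 genes held 37%, 39.3% and 23.7% of the summed signal on arrays 1, 2 and 3, and 50% of it was held by 189, 166 and 376 genes. The cause of the slope was not tested.

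**Figure D5:**
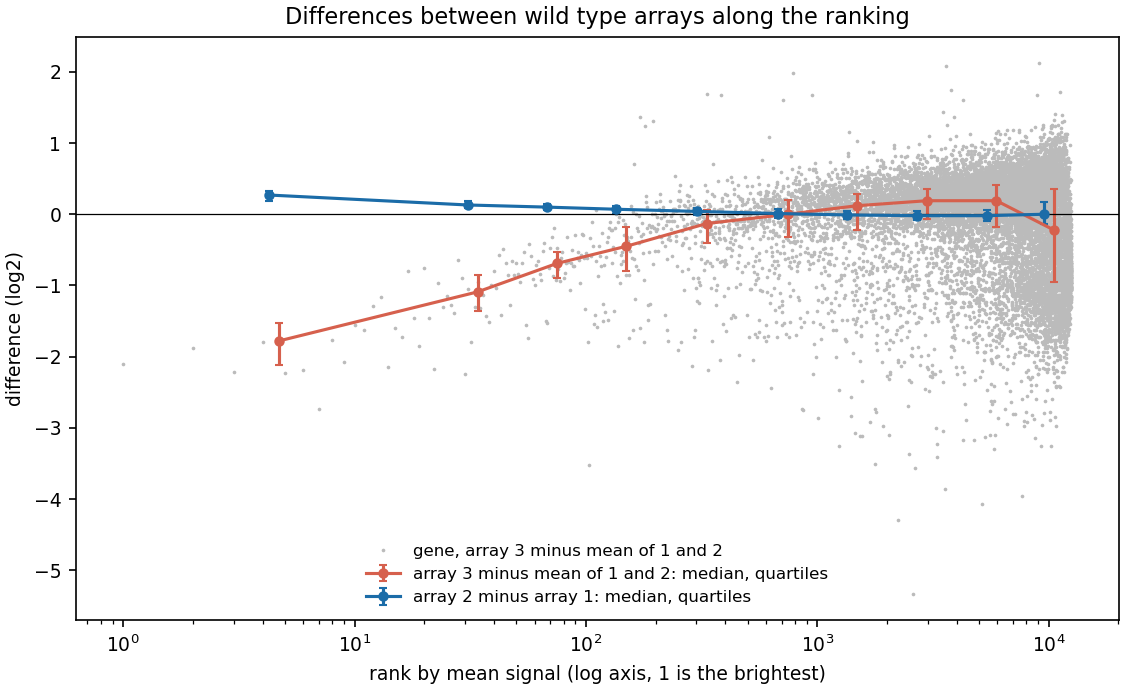
Difference between wild type arrays (log2, vertical axis) against rank by mean signal (log axis): array 3 minus the mean of arrays 1 and 2 for each gene (grey) and as median with quartiles in 10 rank ranges (red), and array 2 minus array 1 (blue). The red medians rise from -1.78 in ranks 1 to 20 to 0.19 in ranks 2001 to 8000 and are at -0.22 in ranks 8001 to 12518, while the blue ones stay between -0.02 and 0.27.

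Some genes departed from this course on array 3. Fos and Egr1, immediate early genes that respond within minutes to stimuli, lay farthest below on array 3 of all ranked genes: Fos read 4.24, 3.63 and -1.39, and Egr1 4.16, 3.55 and -0.45. Jun (3.57, 3.17 and 1.04) and Dusp1 (3.45, 2.97 and 1.33) were also lowest on array 3. Of 18 immediate early genes, 12 were ranked and 11 of these were lower on array 3, by a median of -2.24, against 0.08 over all ranked genes and -2.09 for the crystallins; Jund, with 3.73, 3.65 and 3.49, differed little. Their summed level was 88.9, 62.7 and 21.2 on the wild type arrays and 51.9, 34.6 and 28.9 on the knock-in arrays. In the highest 500, the genes farthest below on array 3 were Crygf (-3.52), Cryaa (-2.74), the long non-coding RNA Gm15417 (-2.35), Cryge (-2.25) and Crygc (-2.23). Those farthest above were Gab3 (1.69), Ermn (1.68), Gcm1 (1.37), Rhox8 (1.31) and Dcc (1.24). Gcm1, a transcription factor known from placenta, read 6.31, 6.02 and 7.54, with array 2 the lowest, and Dcc, a netrin receptor, 6.23, 6.02 and 7.36. Only 1 of 3 named probes of Dcc and 1 of 2 of Gab3 were above background on all 3 arrays. For Gcm1 it was 3 of 4, and for Ermn and Rhox8 2 of 2. No test was made for a single array.

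The ranking was then set beside that of the knock-in lens, to ask which of the brightest wild type genes differed with the mutation. The same 11 genes stood in the highest 20 of both groups (55% of each list), and 81 were shared in the highest 100. Of 12781 genes tested with limma, 1613 (12.6%) were lower and 1697 (13.3%) higher in the knock-in lens at a Benjamini-Hochberg adjusted p below 0.05; scaling by the median in place of the 75th percentile gave 1654 lower and 1143 higher. Among the highest 100, 13 fell and 0 rose by limma's adjusted p, and at an unadjusted p under 0.05 the counts were 31 and 0, while quantile normalization gave 6 that rose. Their median difference was -0.44 against -0.04 over all genes; genes chosen for high wild type signal are more likely to lie lower elsewhere, so the count says nothing particular about them. Lctl fell from 7.69, 7.70 and 7.06 to 5.03, 5.19 and 5.11 (difference -2.38, SE 0.21, adjusted p = 0.000613, limma). Lgsn fell from 9.06, 9.33 and 7.90 to 5.54, 6.01 and 6.58 (difference -2.71, SE 0.42, adjusted p = 0.0051, limma). In both genes every knock-in array lay below every wild type array, which was not particular to them within the highest 100. With slide as a random block Lgsn no longer passed (adjusted p = 0.0682, limma).

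Of the 16 crystallins, Crybb1, Crygb and Cryba4 fell among the highest 100 at the adjusted threshold. Other γ-crystallins differed by more than Cryba4 but did not pass it. They were Crygf (-2.25, adjusted p = 0.111), Cryge (-1.91, 0.0517), Cryga (-1.83, 0.0528), Crygc (-1.54, 0.0934) and Crygd (-1.41, 0.115, all limma). Crygn alone had a difference above 0 (0.69, adjusted p = 0.0803, limma). Crybb1 went from 7.64, 7.70 and 7.14 to levels between 5.81 and 6.13 (difference -1.51, SE 0.20, adjusted p = 0.00298, limma). Crygb went from 9.21, 9.42 and 7.69 to 6.54, 6.45 and 6.46 (difference -2.29, SE 0.43, adjusted p = 0.0103, limma). With slide as a random block Crygb no longer passed (adjusted p = 0.0746, limma). For Cryba4 the difference was -1.38 (SE 0.39, adjusted p = 0.0411, limma), and it did not pass when any single array other than wild type array 3 was left out (adjusted p from 0.0875 to 0.123). Crybb2 itself, whose codon was altered, read 9.17, 8.91 and 8.79 in the knock-in lens, a difference of -0.41 (SE 0.55, adjusted p = 0.625, limma), with the wild type arrays on both sides of these values. The other members that fell were the water channel gene Mip (-1.21), the tubulin gene Tuba1a (-0.88) and 6 ribosomal protein genes (-0.72 to -1.18), of which Rpl37a fell most. These counts turn on wild type array 3: without it, or with scan day as a block, 74 of the highest 100 fell. Array 3 is the only array of its scan day, so these settings share their contrast. Over all genes tested, 3182 of 13061 fell without it and 3063 of 12781 with scan day as a block. With slide as a random block 2 of the highest 100 fell, namely Lctl and Crybb1, against 259 of 12781 over all genes tested. All knock-in arrays share a slide that no wild type array is on, so that genotype and slide cannot be told apart. Summed levels of some marker lists also differed between the arrays of both genotypes, and their part in these differences was not tested. That of smooth muscle genes was 91.6 to 159 on wild type and 25.7 to 48.8 on knock-in arrays and rests on Smtn and Acta2, while Tagln of the same list rose in the knock-in lens (difference 2.70, adjusted p = 0.0103, limma). The sum of the liver list, 78.3 to 225 and 36.1 to 53.7, rests on the brighter probe of Apoa2. Photoreceptor genes summed to 14.2 to 28.1 on wild type arrays and to 19.9, 22 and 138 on knock-in replicates 1, 2 and 4, so that replicate 4 stood apart. Fewer cells of a type and less RNA per cell cannot be told apart in such whole-lens RNA.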

How the data were processed

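Single-colour Agilent arrays of lens RNA, 3 wild type and 3 knock-in, were analysed from the authors' deposited scanner intensity values per spot: the processed signal, from which background had been subtracted within the array, and the medians of the spot and its surroundings. The file headers name Agilent Feature Extraction 11.0.1.1, whereas version 9.1 stands in the submitters' processing notes; no source used here gives a scaling between arrays. The authors' deposited background flags (other) were used to select probes. Control spots were left out, spots of a probe averaged, and log2 values scaled to the 75th percentile; the number of arrays limits the precision. RefSeq accessions were matched to symbols through a table of GRCm38.p6 for 27234 of 39429 probes, and a gene was represented by its brightest probe. Members and gene lists were chosen with earlier results of these data known.

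Named were all crystallins, the 30 highest genes, up to 4 highest members of each list, up to 4 marker genes at background, and the 5 genes highest and 5 lowest on array 3 among the highest 500; any other gene, list members at background included, was named with its values known. Some genes are not reported here. Knock-in and wild type arrays were compared with limma 3.58.1 (R 4.3.3) after a test on simulated data, over genes above background on all arrays of a group, with Benjamini-Hochberg adjustment. Replicate numbers were not taken as pairs in the main comparison. The deviations of same-numbered arrays from their group means correlated at 0.168 and -0.216. Array 3 dominates the wild type deviations, so these values cannot show whether the numbers pair the groups. Alternatives were another background correction (normexp, offset 50), quantile normalization, no filter on dim probes, the mean of a gene's probes, slide, scan day and replicate as blocks, and leaving out each array.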

Additional observations from a re-analysis of the deposited data

Results flagged for a closer look

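Among the 100 brightest probes of the wild type arrays, 33 carry no gene symbol here, since their accession was not matched in the RefSeq table, and they enter none of the comparisons above. The brightest of them stood 16th among all probes, with a mean level of 8.68. Of the 20667 probes above background on all 3 arrays, 5058 have no symbol.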

How the results depend on the processing

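Of 222 alternative values, 183 kept their direction and call or moved little, 30 moved and 9 fell short of the threshold in the same direction. Most of these values are counts, ranks or correlations, which have no direction to reverse. None of the differences among them reversed. A move of Cryaa from rank 7 to rank 17 after quantile normalization was counted as little. Without the filter on dim probes 20657 genes would be ranked. The mean correlation between wild type arrays (0.969) ranged from 0.953 to 0.996 on leaving out single arrays, 0.996 being that without array 3, and the crystallin difference of array 3 was -0.81 after quantile normalization. The 3310 genes called between knock-in and wild type became 5445 with the replicate block, 5563 with scan day as a block, 621 with slide as a random block, 1433 after normexp and 2002 without the filter, and from 1538 to 5658 on leaving out single arrays. The scan day block takes wild type array 3, alone on its day, out of the contrast, much as leaving it out does. The replicate block does so for wild type replicate 3 and knock-in replicate 4, so these settings are not independent checks. Of the highest 100, the 13 called lower became 62 with the replicate block, 74 with scan day, 2 with slide, 22 after normexp and 6 without the filter, and from 5 to 74 on leaving out single arrays; the number called higher became 6 after quantile normalization. Over all 12781 genes tested, the 1613 called lower became 3110 with the replicate block, 3063 with scan day, 259 with slide and 716 after normexp. They became 875 of 20656 without the filter, and from 744 to 3182 on leaving out single arrays. After quantile normalization 1898 of 12781 were called higher. With slide as a block, Crygb, Lgsn and Cryba4 no longer passed limma's test (adjusted p 0.0746, 0.0682 and 0.242). Cryba4 did not pass without the filter either. On leaving out array 3, Cryab ranked 6th and Crygs 7th. With the mean of a gene's probes, Crygs ranked 2nd. Signals near background limit what can be said of the lowest ranked genes.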
